A study of Homo sapiens with 19 samples.

Results

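The antiviral restriction factors described here are 10 genes, MX1, MX2, RSAD2, BST2, IFITM1, IFITM2, IFITM3, SAMHD1, SAMD9 and SAMD9L. They were taken by gene symbol, and all 10 were found among the 25365, 25267 and 25266 genes used in the tables of the lymphoma cell lines OCI-LY10, TMD8 and SUDHL2. All 3 are established human lines of the activated B-cell-like (ABC) form of diffuse large B-cell lymphoma, a cancer in which antigen receptor and MYD88 signals feed NF-kB. RNA was sequenced from cells transduced with hairpin shEGR1#8, with hairpin shEGR1#9 or with a control shRNA, and the series asks what depends on EGR1, an early-response transcription factor. In all 3 groups the hairpin was induced with doxycycline at 20 ng/ml for 2 days, so the controls received a hairpin and the drug too. OCI-LY10 gave 9 libraries, 3 per group, and TMD8 and SUDHL2 gave 1 library per group each, so values in these 2 lines have no replicate error. The series has 19 samples, of which 15 are RNA libraries, and the other 4, EGR1 chromatin immunoprecipitation and input, were not analysed here.

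Restriction factors are proteins that block steps of virus replication inside the cell. Many are interferon-stimulated genes: type I interferon binds IFNAR1 and IFNAR2, the kinases JAK1 and TYK2 pass the signal on, and a complex that contains IRF9 binds interferon-stimulated response elements (ISRE) in promoters. In this lymphoma subtype mutant MYD88 is known to drive interferon beta production, while IRF4 and SPIB hold IRF7 down. MX1 and MX2 are dynamin-like GTPases, MX1 in the cytoplasm and MX2 at the nuclear envelope, where it restricts HIV. RSAD2 (viperin) makes a chain-terminating nucleotide, and BST2 (tetherin) holds budding virus particles at the cell surface. The IFITM proteins block the fusion of virus and cell membranes, and IFITM3 is also known as a scaffold for PI3K signalling in B cells. SAMHD1 cleaves the deoxynucleotides that reverse transcription needs, and SAMD9 and SAMD9L restrain poxviruses and slow protein synthesis.

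The letters of the ISRE are shown first because it is the element through which many interferon-stimulated genes are known to be switched on. RefSeq promoter windows on build GRCh38.p14, 300 bases from 250 before to 50 after each gene's start, were matched by symbol for 8 of the 10 genes, all but MX2 and IFITM2. The motif searched was GAAA, any 2 bases and GAAA again, on either strand, and it was found in the windows of 6 of these 8 genes, and in 7 of their 11 windows. It is held by 3.57% of all 35116 RefSeq windows. The stretches of 60 bases below are printed on the gene's strand with the motif in capitals (TTTC, 2 bases and TTTC where it lies on the opposite strand).
MX1 (chr21:41420528-41420587, plus strand): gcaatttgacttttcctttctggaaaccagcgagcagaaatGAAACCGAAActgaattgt
RSAD2 (chr2:6877607-6877666, plus strand): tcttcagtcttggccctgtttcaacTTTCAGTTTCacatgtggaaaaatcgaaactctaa
BST2 (chr19:17405723-17405782, minus strand): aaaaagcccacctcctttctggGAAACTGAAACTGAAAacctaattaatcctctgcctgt
IFITM1 (chr11:313992-314051, plus strand): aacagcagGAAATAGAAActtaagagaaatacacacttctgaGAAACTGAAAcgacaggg
IFITM3 (chr11:320870-320929, minus strand): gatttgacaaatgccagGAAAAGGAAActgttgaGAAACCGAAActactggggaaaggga
SAMD9 (chr7:93118081-93118140, minus strand): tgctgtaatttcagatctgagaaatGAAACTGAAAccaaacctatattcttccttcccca

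Counted from the start to the first base of the match, the MX1 motif begins 11 bases after the start, and those of SAMD9 and RSAD2 begin 136 and 145 bases before it. IFITM1 and IFITM3 have 2 matches each, at 40 and 6 bases and at 52 and 35 bases before the start. The 2 matches of BST2, at 130 and 124 bases before the start, overlap and share their middle GAAA. A further MX1 window holds 1 match, 196 bases before its start. The windows of SAMHD1 and SAMD9L do not hold these letters. The letters GCGNGGGCG, a motif of EGR1, were in 0 of the 11 windows of these 8 genes, beside 9.43% of all windows. With so few windows, 0 does not set these genes apart from that share. A match is a description of sequence and not a bound site.

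Several of the genes are neighbours in the GRCh38.p14 annotation. MX2 and MX1 adjoin on chromosome 21, SAMD9 and SAMD9L on chromosome 7, and IFITM2, IFITM1 and IFITM3 follow each other on chromosome 11. RSAD2 is on chromosome 2, next to CMPK2, while BST2 and SAMHD1 are on chromosomes 19 and 20. IFITM1, IFITM2 and IFITM3 are related copies whose reads the counting may have split, so their single values are uncertain.

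The values were read as FPKM, fragments scaled to gene length and library size, a unit inferred from the values because no header names it. FPKM summed to 431993 to 445028 per library in OCI-LY10, 906177 to 1127927 in TMD8 and 941761 to 1075101 in SUDHL2. Short RNA genes took 0.471 to 0.613% of the OCI-LY10 sums, and in TMD8 they took 63.1 and 60.5% in the shEGR1#8 and shEGR1#9 libraries, against 36.3% in control. In SUDHL2 they took 53.6 to 55.3%. The number of reads behind a value is not given in the sources used here, so no counting interval can be set. Of 9 B-cell markers 8 reached 1 FPKM in every group of every line. In OCI-LY10 they summed to 2485 to 2758 FPKM under the shEGR1#8 label and 2507 to 2615 under the shEGR1#9 label, against 2184 to 2328 in control, and the part of this in the results was not tested. None of the T and NK cell or myeloid markers reached 1 FPKM there, and these lists summed to at most 0.357 and 0.0793 FPKM in any library. CD3G, CD2, CD4, KLRD1, NKG7, GNLY, LYZ, CD33 and ITGAM were listed at 0 throughout. Of the fibroblast, epithelial, erythroid and endothelial markers only EPCAM (6.05 to 8.65 FPKM) and PECAM1 (4.14 to 5.82) reached 1 FPKM there.

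EGR1 RNA, the target, did not fall with its hairpins in OCI-LY10. It averaged 13.96 ± 5.69 FPKM under the shEGR1#8 label and 15.1 ± 6.61 under the shEGR1#9 label, against 10.2 ± 1.93 in control (SD, n = 3 each). Both labels together differed from control by 0.42 log2 units (SE 0.267), and limma gave an adjusted p of 0.349. In TMD8 EGR1 stood at 10.8 and 9.95 FPKM under the 2 labels, against 7.31 in control, and in SUDHL2 at 13.7 and 15.4, against 17.0. Directions below therefore compare labels that the level of the target does not back in OCI-LY10 or TMD8. In SUDHL2 EGR1 was lower under both labels, but without replicate libraries this difference could not be tested and does not establish a knockdown. The level of EGR1 protein was not among the data used here, and "shEGR1" always means the label. Whether replicate libraries came from separate cultures is not stated, so p-values reflect only the spread between them, which may be technical. As in any bulk RNA, fewer cells expressing a gene and less of its RNA per cell cannot be told apart.

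In OCI-LY10 control libraries the order of levels per gene length was BST2 (104 ± 6.13 FPKM), MX1 (68.9 ± 3.41), MX2 (42.8 ± 0.860), SAMHD1 (12.3 ± 0.513) and IFITM2 (10.3 ± 0.904). Below these lay SAMD9L (5.52 ± 0.786) and SAMD9 (5.24 ± 0.359), the one pair of neighbours in the order whose control ranges overlapped. IFITM3 followed at 4.04 ± 0.0250, IFITM1 at 0.827 ± 0.0200 and RSAD2 at 0.0341 ± 0.0297 FPKM (SD, n = 3 for all). IFITM1 stood far higher in control libraries of the other lines, at 4.04 FPKM in TMD8 and 141.5 in SUDHL2. MX1 stood at 18.2 FPKM in the TMD8 control and 276 in the SUDHL2 control, while MX2 lay between 42.8 and 48.1 in the control groups of all 3 lines. Each table may carry its own normalization, so levels across lines are set side by side without a test.

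MX1, SAMD9L, IFITM2, SAMD9, IFITM3 and SAMHD1 rose under the shEGR1 labels in OCI-LY10, and MX2 and BST2 did not pass. With both labels against control, 6 of the 8 tested genes rose and 0 fell (limma, Benjamini-Hochberg adjusted p under 0.05). Over all 10612 genes tested 5.84% rose and 2.71% fell. RSAD2 and IFITM1 did not reach 1 FPKM in 3 libraries and were not tested. The median log2 change of the 8 genes was 0.43, beside 0.03 for all genes tested. The split of all genes was 620 up and 288 down, and it moved to 443 and 365 with quantile normalization and to 526 and 379 with median-ratio scaling.

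**Figure D1:**
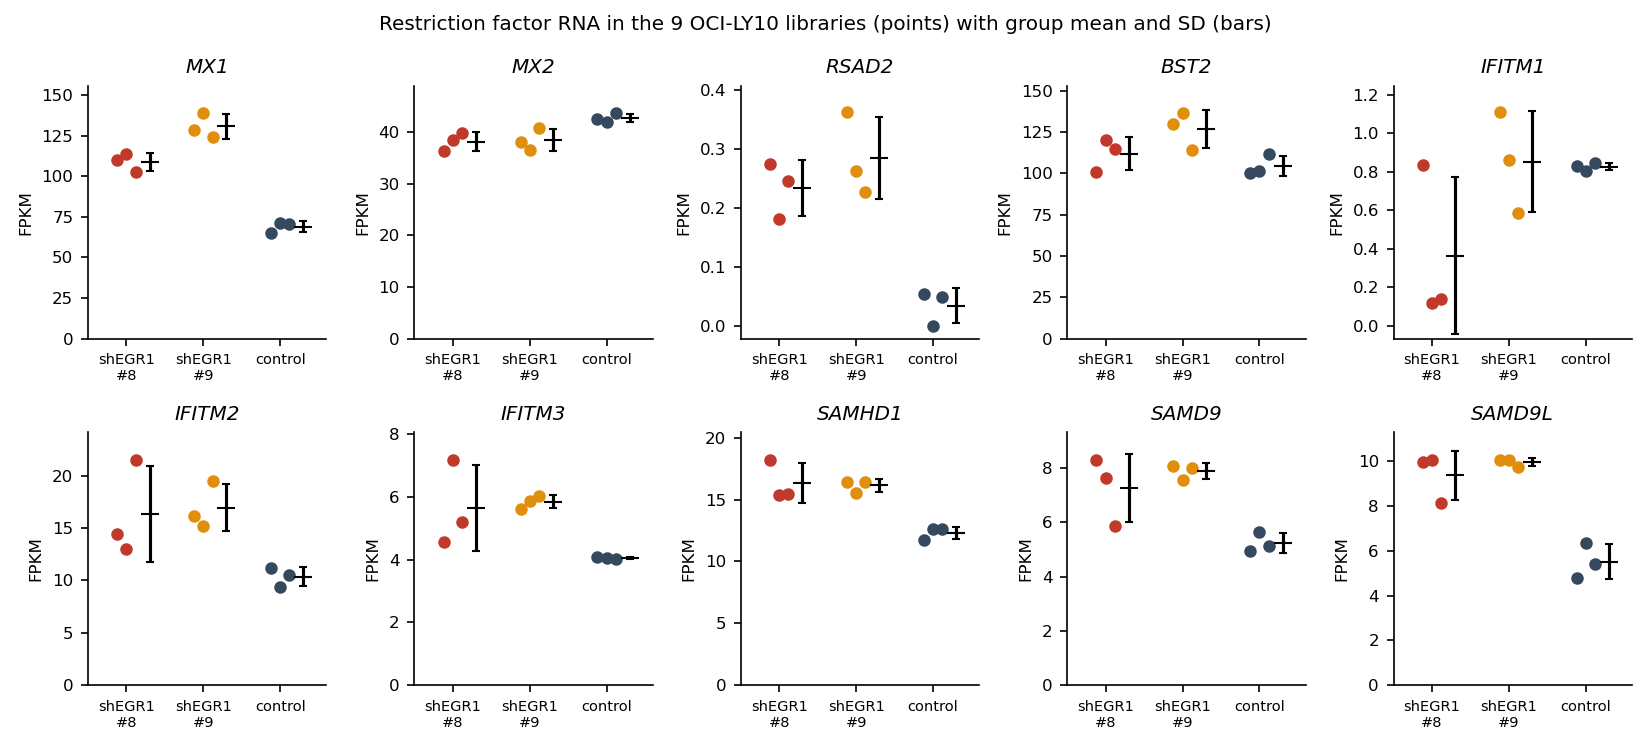
FPKM of each gene in the 9 OCI-LY10 libraries, 1 point per library, with the group mean and SD (n = 3) beside the points; each panel has its own linear axis. All 6 libraries with shEGR1 labels lie above all 3 controls for MX1, RSAD2, IFITM2, IFITM3, SAMHD1, SAMD9 and SAMD9L and below them for MX2. Over all genes tested 12.9% lie wholly above control in this way and 8.22% wholly below.

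MX1, the cytoplasmic GTPase, stood at 110, 114 and 103 FPKM under the shEGR1#8 label and at 129, 139 and 124 under the shEGR1#9 label, against 65.0, 71.2 and 70.6 in control. The 3 groups did not overlap, with shEGR1#9 highest. The log2 change of both labels was 0.78 (SE 0.058, limma adjusted p = 0.000209), 0.65 for shEGR1#8 and 0.91 for shEGR1#9 taken alone. These calls held in each of the alternative settings run.

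MX2, its neighbour on chromosome 21, stood at 36.3, 38.5 and 39.9 FPKM under the shEGR1#8 label and at 38.1, 36.6 and 40.8 under the shEGR1#9 label, against 42.6, 42.1 and 43.8 in control. All 6 values lay below the 3 controls, by a small margin. Over all genes tested 8.22% lay wholly below control in this way and 12.9% wholly above. The log2 difference of −0.16 (SE 0.0527) did not pass (limma adjusted p = 0.104), though it did with array weights (limma adjusted p = 0.0219).

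The ratio of MX1 to MX2 was 3.03, 2.96 and 2.57 under the shEGR1#8 label and 3.38, 3.80 and 3.05 under the shEGR1#9 label, against 1.53, 1.69 and 1.61 in control. On the log2 scale the mean ratio was 1.64 ± 0.190 over the 6 libraries with shEGR1 labels and 0.69 ± 0.0742 over the 3 controls (SD). The difference of 0.95 gave p = 0.0238 in a two-sided exact permutation test (0.0317 after Benjamini-Hochberg adjustment over 4 such tests), and it was in the same direction in 6 of 6 libraries. That is the smallest p that 6 against 3 libraries allow, and the ratio was chosen after its values were seen. With all 6 MX1 values above the controls and all 6 MX2 values below them, the ratio had to separate. Its p was thus fixed beforehand and adds no evidence to the values of the 2 genes. The test also pools the libraries of both hairpin labels.

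RSAD2, the viperin gene, was scarcely detected in OCI-LY10. It was listed at 0.275, 0.182 and 0.246 FPKM under the shEGR1#8 label and at 0.363, 0.263 and 0.228 under the shEGR1#9 label, against 0.0542, 0 and 0.0481 in control. The groups did not overlap, and the means were 0.259 ± 0.0605 and 0.0341 ± 0.0297 FPKM (SD, n = 6 and 3). A two-sided exact permutation test gave p = 0.0238, adjusted p = 0.0317 over the 4 tests. It pools the libraries of both hairpin labels, and without overlap its p can only be this smallest value. With no filter on low values, limma gave a log2(FPKM + 1) change of 0.28 (SE 0.0408, adjusted p = 0.0104), and this scale understates changes at such low levels.

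BST2, the tetherin gene and the most abundant of the 10 in control, stood at 100.8, 120.4 and 114.6 FPKM under the shEGR1#8 label and at 130.1, 136.5 and 113.8 under the shEGR1#9 label, against 100.3, 101.3 and 111.4 in control. The groups overlapped, with 5 of 6 libraries above all controls. The log2 difference of 0.19 (SE 0.0783) did not pass (limma adjusted p = 0.171), and with array weights the limma adjusted p was 0.0483.

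IFITM2 stood at 14.4, 13.0 and 21.6 FPKM under the shEGR1#8 label and at 16.2, 15.2 and 19.5 under the shEGR1#9 label, against 11.2, 9.38 and 10.5 in control. Replicate 3 was the highest library of both shEGR1 labels, as it was for EGR1 itself, and the IFITM2 call held without replicate 3 of every group. The log2 change was 0.62 (SE 0.146, limma adjusted p = 0.0336). The call was lost when control replicate 1, 2 or 3 was left out (limma adjusted p 0.0869, 0.134 and 0.119) and without shEGR1#9 replicate 1, 2 or 3 (0.0577, 0.0523 and 0.0711). It was also lost with no filter (0.0644) and with quantile normalization (0.0517).

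IFITM3, the endosomal member of the family, stood at 4.55, 7.19 and 5.20 FPKM under the shEGR1#8 label and at 5.62, 5.88 and 6.04 under the shEGR1#9 label, against 4.07, 4.05 and 4.02 in control. All 6 lay above the tight group of controls. The log2 change of 0.41 (SE 0.108) passed narrowly (limma adjusted p = 0.0499) and lost its call in 11 of 16 alternative settings. Among these were each control left out in turn (limma adjusted p 0.146, 0.144 and 0.17 without replicate 1, 2 and 3) and each shEGR1#9 library left out (0.0762, 0.0996 and 0.104).

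IFITM1, the cell-surface member, varied most between libraries of 1 label. It stood at 0.835, 0.118 and 0.140 FPKM under the shEGR1#8 label and at 1.11, 0.862 and 0.585 under the shEGR1#9 label, against 0.828, 0.806 and 0.846 in control. Replicates 2 and 3 of shEGR1#8 were lowest, and the groups overlapped. The means of 0.609 ± 0.407 and 0.827 ± 0.0200 FPKM (SD, n = 6 and 3) differed by −0.22 FPKM, which did not pass a two-sided exact permutation test (p = 0.571). That test too pools the libraries of both hairpin labels.

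Because reads may be split among the 3 IFITM copies, their sum was fitted in the same model. It stood at 19.8, 20.3 and 26.9 FPKM under the shEGR1#8 label and at 22.9, 21.9 and 26.1 under the shEGR1#9 label, against 16.1, 14.2 and 15.4 in control. All 6 sums lay above the controls, and the log2 change was 0.56 (SE 0.102, limma adjusted p = 0.0121). Taken alone, shEGR1#8 and shEGR1#9 gave 0.51 and 0.60 (limma adjusted p 0.0415 and 0.0234).

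SAMHD1 stood at 18.3, 15.4 and 15.5 FPKM under the shEGR1#8 label and at 16.4, 15.6 and 16.5 under the shEGR1#9 label, against 11.7, 12.6 and 12.6 in control. The shEGR1 labels overlapped each other, and all 6 of their libraries lay above control. The log2 change was 0.37 (SE 0.0647, limma adjusted p = 0.0102). Leaving out control replicate 1 ended the call (limma adjusted p = 0.0609), as did a fit without replicate 3 of every group (0.0621), a setting added after the data were seen because EGR1 was high in replicate 3 of both labels.

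SAMD9L stood at 9.96, 10.07 and 8.13 FPKM under the shEGR1#8 label and at 10.05, 10.09 and 9.77 under the shEGR1#9 label, against 4.80, 6.36 and 5.41 in control. All 6 lay above the controls, and the log2 change of 0.71 (SE 0.089, limma adjusted p = 0.00242) kept its call in all 16 alternative settings. SAMD9 stood at 8.32, 7.63 and 5.86 FPKM under the shEGR1#8 label and at 8.09, 7.55 and 8.01 under the shEGR1#9 label, against 4.93, 5.63 and 5.14 in control. Replicate 3 of shEGR1#8 came close to the highest control, and the log2 change was 0.45 (SE 0.0937, limma adjusted p = 0.0196). The SAMD9 call was lost when control replicate 1, 2 or 3 was left out (limma adjusted p 0.0946, 0.0564 and 0.0948) and without shEGR1#9 replicate 3 (0.0502).

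The log2 ratio of SAMD9L to SAMD9, the 2 neighbours on chromosome 7, was 0.36 ± 0.0837 over the 6 libraries with shEGR1 labels and 0.07 ± 0.108 over the 3 controls (SD). The difference of 0.29 gave p = 0.0238 in a two-sided exact permutation test (adjusted p = 0.0317 over the 4 tests), and 6 of 6 libraries lay above all controls. This ratio too was chosen after its values were seen, and its p is again the smallest that the test allows. The test pools the libraries of both hairpin labels as separate units, although same-numbered libraries of the 2 labels deviated together.

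The hairpin labels were also fitted singly, and these comparisons share the 3 control libraries. MX1, SAMHD1 and SAMD9L rose under shEGR1#8, 3 of the 8 tested genes, while 3.71% of all genes rose and 1.62% fell. MX1, SAMHD1, SAMD9 and SAMD9L rose under shEGR1#9, 4 of the 8, while 3.55% of all genes rose and 1.54% fell. The log2 change of SAMHD1 was 0.38 under shEGR1#8 and 0.37 under shEGR1#9 (limma adjusted p 0.0249 and 0.0279), and that of SAMD9L was 0.67 and 0.76 (limma adjusted p 0.0102 and 0.00506). In a fit of shEGR1#8 and control alone the calls of SAMD9L and SAMHD1 were lost (limma adjusted p 0.0527 and 0.0922). SAMD9 differed from control by 0.40 under shEGR1#8 without passing and rose by 0.51 under shEGR1#9 (limma adjusted p 0.0719 and 0.0323). IFITM2 differed by 0.58 and 0.66 and IFITM3 by 0.38 and 0.44, none of which passed.

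The number of calls changed with single libraries. With both labels, 6 calls became 2, 3 and 3 without control replicate 1, 2 and 3, and 3 without shEGR1#9 replicate 3. Calls fell over all genes too: 620 upward calls became 230, 240 and 206 without those controls and 383 without shEGR1#9 replicate 3. Under shEGR1#9, 4 calls became 2 without any 1 of the controls or of the shEGR1#9 libraries. Over all genes, 377 upward calls became 126, 145 and 103 without the controls and 169, 109 and 121 without the shEGR1#9 libraries. The SAMHD1 call under shEGR1#8 was lost when control replicate 1, 2 or 3 was left out (limma adjusted p 0.104, 0.08 and 0.0911) and without shEGR1#9 replicate 2 (0.0515). Under shEGR1#9 it was lost without those controls (0.116, 0.0894 and 0.094) and without shEGR1#9 replicate 1, 2 or 3 (0.0938, 0.085 and 0.115). SAMD9 under shEGR1#9 was lost without the same libraries (limma adjusted p 0.121, 0.0781 and 0.117, then 0.0971, 0.0952 and 0.123). Some calls were gained: SAMD9 under shEGR1#8 without its replicate 3 (limma adjusted p = 0.00679), IFITM2 under shEGR1#8 without its replicate 2 (0.0456) and IFITM3 under shEGR1#8 without its replicate 1 (0.0467). Under shEGR1#9, IFITM2 passed without shEGR1#8 replicate 2 or 3 (limma adjusted p 0.0493 and 0.00723) and IFITM3 without shEGR1#8 replicate 1 or 2 (0.0445 and 0.0136).

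Set against each other, shEGR1#9 and shEGR1#8 gave 0 calls among the 8 genes and 0 among all 10612 (limma, 0.0% up and 0.0% down). At an unadjusted p under 0.05, 267 genes and 1 of the 8, MX1, passed. MX1 was higher under shEGR1#9 by 0.26 log2 units, with a 95% interval of 0.11 to 0.41 and a limma adjusted p of 1.00. The differences of the other 7 lay between −0.01 and 0.18.

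**Figure D2:**
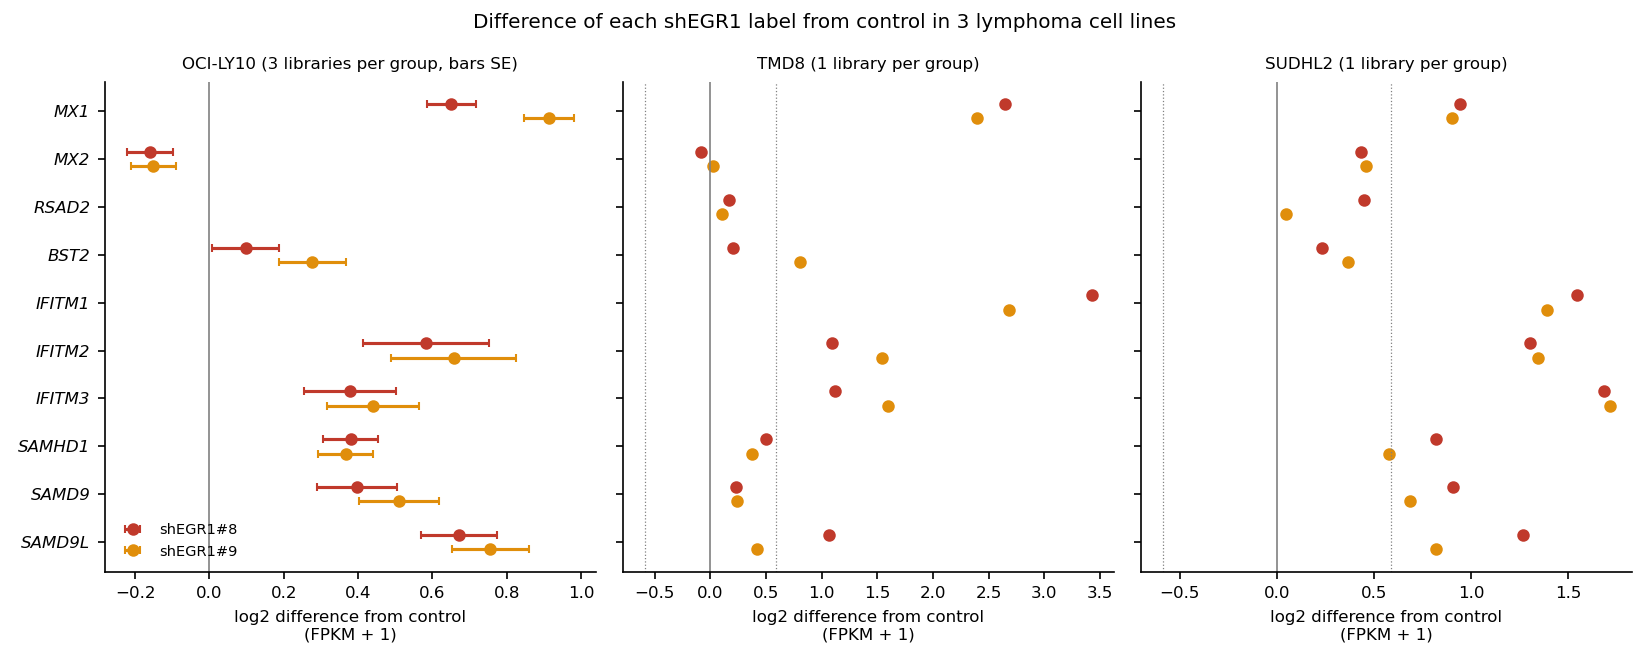
Difference of the libraries labelled shEGR1#8 (red) and shEGR1#9 (orange) from control on the log2(FPKM + 1) axis, in OCI-LY10 (limma estimate with its SE, n = 3 per group; RSAD2 and IFITM1 were not fitted) and in TMD8 and SUDHL2 (1 library per group, dotted lines at 1.5-fold). The axes differ between panels: MX1 and IFITM1 reach 2.65 and 3.43 in TMD8, and MX2 lies below 0 in OCI-LY10 but at 0.43 and 0.46 in SUDHL2.

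In TMD8, MX1 and the 3 IFITM genes stood far above control under both shEGR1 labels. With 1 library per group there is no test, and a gene was counted when both libraries differed from control by at least 1.5-fold in FPKM + 1 in the same direction. Of the 9 genes that reached 1 FPKM, 4 were counted upward and 0 downward, while 6.78% of 11807 genes were counted upward and 13.9% downward. MX1 stood at 120 and 100.2 FPKM in the shEGR1#8 and shEGR1#9 libraries, against 18.2 in control, 6.27-fold and 5.26-fold in FPKM + 1. IFITM1 stood at 53.2 and 31.4 FPKM, against 4.04 in control, 10.7-fold and 6.42-fold. IFITM2 stood at 16.4 and 22.8 FPKM, against 7.19, and IFITM3 at 7.59 and 10.99, against 2.96.

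The other genes of TMD8 were nearer to control. SAMD9L stood at 9.47 and 5.70 FPKM, against 4.002 in control, and was past 1.5-fold under shEGR1#8 alone. BST2 stood at 50.4 and 77.1 FPKM, against 43.7, and was past it under shEGR1#9 alone. SAMHD1 stood at 35.1 and 32.0 FPKM, against 24.5, and SAMD9 at 4.95 and 4.97, against 4.07. RSAD2 was listed at 0.163 and 0.113 FPKM, against 0.0349. MX2 stood at 43.2 and 46.6 FPKM, against 45.8 in control, log2 differences of −0.08 and 0.02 that turned to 0.38 and 0.41 when the libraries were rescaled without short RNA genes.

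The short RNA share in TMD8 was 63.1 and 60.5% in the shEGR1#8 and shEGR1#9 libraries, against 36.3% in control. The median log2 difference of all genes was 0.31 and 0.33 after rescaling without these genes and −0.09 and 0.00 as deposited, and rescaling gave 2238 genes past 1.5-fold upward and 618 downward, where the deposited values gave 800 and 1644. After it 7 of the 9 genes were counted upward, BST2, SAMHD1 and SAMD9L joining the first 4. T and NK cell markers summed to 3.72 and 2.50 FPKM, against 1.15 in control, with KLRD1 highest under both shEGR1 labels and CD3D, CD2 and GNLY listed at 0 in all 3 libraries. Myeloid markers summed to 3.03 and 1.95 FPKM, against 1.28, most of it LYZ, with S100A8, S100A9 and FCGR3A listed at 0. B-cell markers summed to 595 and 806 FPKM, against 782. Fibroblast and epithelial markers summed to 42.2 and 44.0 FPKM, against 34.4, most of it CDH1, with EPCAM and KRT19 listed at 0. KRT8 (3.90 to 6.70 FPKM) and COL1A1 (2.00 to 3.50) were also above 1 FPKM in every TMD8 library. The part of these markers in the result was not tested.

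In SUDHL2, 6 of the 9 genes at 1 FPKM or more were past 1.5-fold upward under both labels and 0 downward, while 3.83% of 11631 genes were counted upward and 2.16% downward. IFITM1 stood at 414 and 372 FPKM in the shEGR1#8 and shEGR1#9 libraries, against 141.5 in control. IFITM2 stood at 117 and 121 FPKM, against 46.9, and IFITM3 at 43.3 and 44.2, against 12.8, log2 differences of 1.68 and 1.71. These 3 were the ones that passed a 2-fold limit under both labels. The shares of all genes given above are at 1.5-fold and do not apply to that limit.

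MX1 had its highest level of the 3 lines in SUDHL2, at 531 and 516 FPKM, against 276 in control (log2 differences 0.94 and 0.90). SAMD9L stood at 23.7 and 17.1 FPKM, against 9.28, and SAMD9 at 11.6 and 9.85, against 5.76. SAMHD1 stood at 47.0 and 39.7 FPKM, against 26.3, and missed the count because shEGR1#9 was 1.49-fold above control. It joined the count, as a 7th gene, after rescaling without short RNA genes, which moved the median of all genes to 0.11 and 0.13. The shares of all genes given above are for the deposited values and do not apply to that count. BST2 stood at 122 and 134 FPKM, against 104, and RSAD2 at 0.459 and 0.104, against 0.0685. MX2 stood at 65.3 and 66.5 FPKM, against 48.1, log2 differences of 0.43 and 0.46, above control, whereas in OCI-LY10 all 6 libraries lay below it. T and NK cell markers summed to 3.10 and 2.18 FPKM, against 1.86, and myeloid markers to 1.43 and 3.64, against 2.19. Fibroblast and epithelial markers summed to 45.1 and 39.4 FPKM, against 24.1. Most of that sum was CDH1, at 35.4 and 31.0 FPKM, against 17.6, while EPCAM and KRT19 were listed at 0 in every library. KRT8 (4.27 to 5.94 FPKM) and COL1A1 (1.27 to 3.37) were also above 1 FPKM in every SUDHL2 library. Their part in these differences was not tested.

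**Figure D3:**
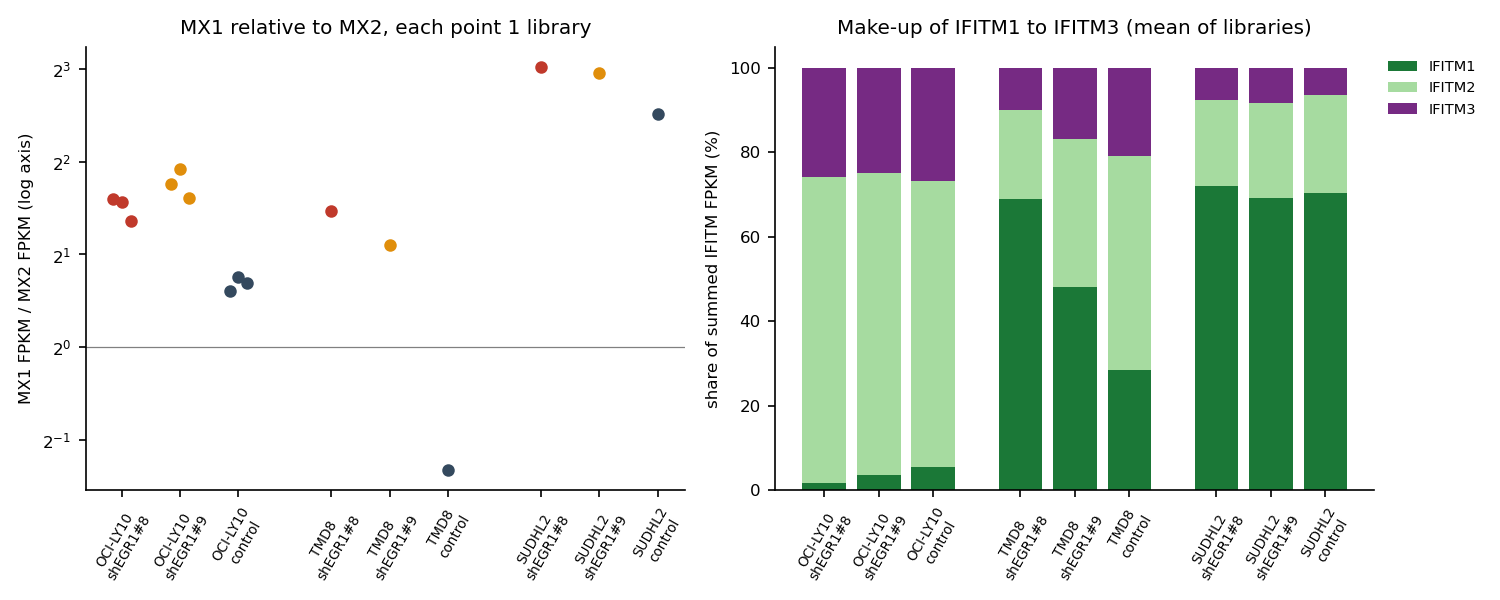
Left, the ratio of MX1 to MX2 FPKM on a log axis, 1 point per library; right, the share of IFITM1, IFITM2 and IFITM3 in their summed FPKM (mean of 3 libraries in OCI-LY10, 1 library elsewhere). The ratio is higher under both shEGR1 labels in each line, and IFITM1 takes 68.9 and 48.2% of the sum in TMD8 under shEGR1#8 and shEGR1#9, against 28.5% in control.

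The balance among relatives differed between the lines. MX1 stood at 2.77 and 2.15 times MX2 in the TMD8 libraries labelled shEGR1#8 and shEGR1#9, against 0.399 times in control, so that MX2 was the more abundant of the pair only in that control library. In SUDHL2 the ratio was 8.13 and 7.76, against 5.73 in control. In OCI-LY10, IFITM1 made up 4.22, 0.581 and 0.520% of the summed IFITM FPKM under shEGR1#8 and 4.85, 3.93 and 2.24% under shEGR1#9, against 5.16, 5.66 and 5.51% in control, and IFITM2 took most of the sum. The shEGR1#8 mean of 1.77% became 0.551% without replicate 1, 2.37% without replicate 2 and 2.40% without replicate 3. In TMD8 it made up 68.9 and 48.2%, against 28.5% in control, and in SUDHL2 72.1 and 69.3%, against 70.3%. The TMD8 control library resembled that of SUDHL2 more (Pearson r = 0.952 of log2 values across 11706 genes, which are not independent) than those of OCI-LY10 (0.817). Short RNA genes took 36.3 to 63.1% of the sums in TMD8 and 53.6 to 55.3% in SUDHL2, but 0.471 to 0.613% in OCI-LY10. The part of processing in this likeness was not tested.

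Genes upstream of these factors were read from a list of 12 interferon signalling genes. In OCI-LY10, 6 of its 11 tested genes rose with both labels and 0 fell, beside 5.84% of all genes rising, with a median log2 change of 0.42. IRF7, the factor that widens interferon output in a feedback loop, averaged 13.4 ± 2.72 FPKM under shEGR1#8 and 13.4 ± 0.991 under shEGR1#9, against 4.73 ± 0.901 in control (SD, n = 3 each). USP18, a brake on the interferon receptor, averaged 10.4 ± 1.49 and 11.7 ± 0.492 FPKM, against 4.60 ± 0.400, 1.10 log2 units higher (limma adjusted p = 0.000272). The receptor genes IFNAR1 and IFNAR2 and the kinase genes JAK1 and TYK2 did not pass, with log2 differences of 0.01, 0.05, −0.05 and 0.23.

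A second list held 38 other interferon-inducible or antiviral genes, and 14 of its 28 tested genes rose, 0 fell and 14 did not pass (median 0.33). IFIT1, which binds viral RNA ends, led at 1.52 log2 units (SE 0.0927, limma adjusted p = 0.000121), above any of the 8 tested restriction factors. ISG15, a ubiquitin-like modifier, followed at 1.24 (SE 0.151, limma adjusted p = 0.00221) and IFIT3, a partner of IFIT1, at 1.21 (SE 0.0875, limma adjusted p = 0.000184). Under shEGR1#8 alone 6 signalling genes and 13 other genes rose, beside 3.71% of all genes, and the counts were 6 and 13 under shEGR1#9, beside 3.55% of all genes. In TMD8, 6 of 12 signalling genes and 15 of 30 other genes were past 1.5-fold upward, beside 6.78% of all genes, and JAK1 was the 1 list gene past it downward, beside 13.9%. After rescaling without short RNA genes the upward counts in TMD8 were 6 and 19. That rescaling raised the upward count over all genes too, as given above, so 6.78% is not the share to set beside them. JAK1, at log2 differences of −0.17 and −0.26, was no longer past 1.5-fold. In SUDHL2 the counts upward were 6 of 12 and 14 of 29, beside 3.83% of all genes, with 0 downward.

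**Figure D4:**
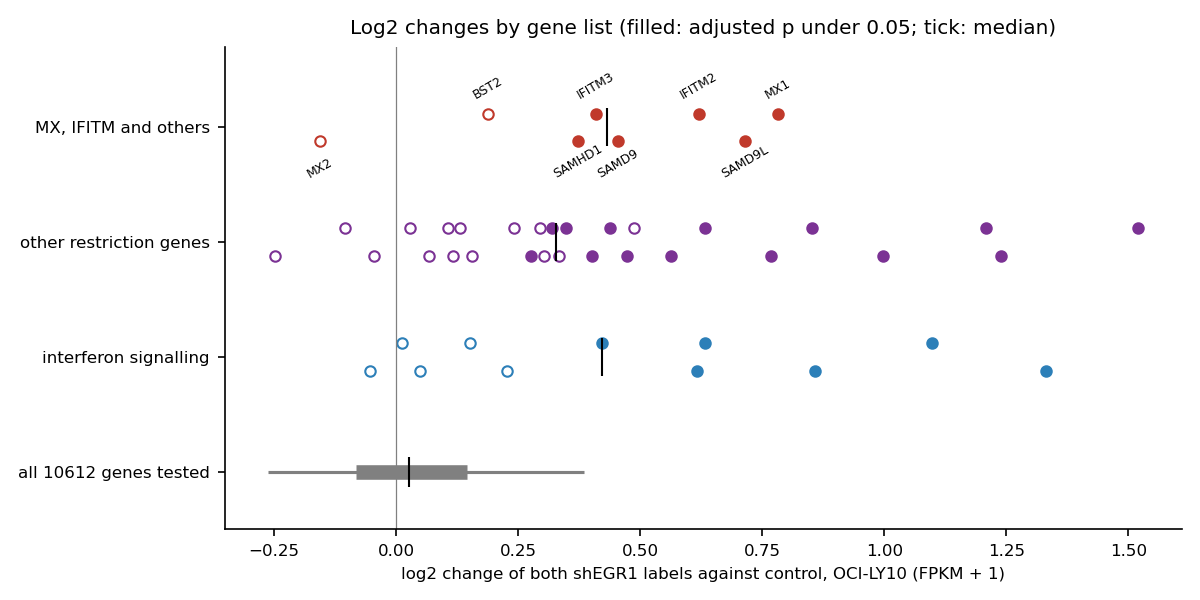
Log2 change of both shEGR1 labels against control in OCI-LY10 for each tested gene of the restriction factors and of the 2 lists, filled where the limma adjusted p was under 0.05, with the list median as a black tick; points are offset up and down only to keep them apart. The grey bar spans the middle of all 10612 genes, from −0.08 to 0.15 (25th to 75th percentile), and its thin line runs from −0.26 to 0.38 (5th to 95th); MX1, SAMD9L, IFITM2, SAMD9 and IFITM3 lie beyond its upper end and MX2 below 0.

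The list genes named so far as risers also stood above control in the other lines. In TMD8, IRF7 stood at 10.9 and 13.5 FPKM, against 2.52 in control. In SUDHL2, IRF7 stood at 53.4 and 45.8 FPKM, against 21.2. USP18, ISG15, IFIT1 and IFIT3 were past 1.5-fold upward under both labels in both lines. JAK1 in TMD8 stood at 19.2 and 18.9 FPKM, against 30.2 in control, the difference that did not last under that rescaling.

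The genes whose profile over the 9 OCI-LY10 libraries lay nearest to each restriction factor were found by the root mean square (RMS) difference of centred log2 values. The 3 nearest to MX1 were IFI44 (0.0589), XAF1 (0.0677) and IFI44L (0.0735), and the nearest to SAMD9L were RTP4 (0.0707), HERC6 (0.0742) and IFI44 (0.0880). MX2 lay nearest to SLC39A1 (0.0301), CHCHD4 (0.0321) and ZCCHC3 (0.0371), none of which passed the test, and BST2 nearest to TRIM21 (0.0462). SAMHD1 lay nearest to BTLA (0.0340), a B and T cell inhibitory receptor gene, and SAMD9 to RGS2 (0.0514), EVI2A and WDFY1. IFITM2 lay nearest to TESK1 (0.0863), CTSA and MYL9, and IFITM3 to CAV1 (0.0841), GPR137B and ZSCAN18. These distances describe 9 libraries that share groups.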

How the data were processed

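The submitters' processing notes name Bowtie2, HISAT, StringTie and build hg19, and the cDNA library kit was TruSeq RNA, per the labels' protocols. Versions, annotation and filters were not given in the sources used here. Values in the deposited tables, 1 per line, were read as FPKM from their values, since no header names the unit, and the number of reads is unknown. Repeated lines (4, 10 and 10) and 430 lines of SUDHL2 that repeat the end of the TMD8 table were left out. In OCI-LY10, MX1 has more than 6 decimals in 8 of 9 libraries and IFITM3 and SAMD9 in 4 each, as 6763 genes have in at least 1 library, and no source used here explains it.

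In OCI-LY10, log2(FPKM + 1) of the 10612 genes with at least 1 FPKM in at least 3 libraries was fitted in limma 3.58.1 (R 4.3.3) with a mean-variance trend, 1 mean per group and Benjamini-Hochberg adjustment over all genes tested, calling at 0.05. The script was tested on simulated data. In TMD8 and SUDHL2 differences of 1.5-fold were described. Exact permutation tests, promoter searches and figures used Python 3.11.15, numpy 2.4.6, pandas 2.3.3, scipy 1.17.1 and matplotlib 3.10.9. The members, lists, markers and tests were chosen with earlier results of these data known. All 10 members, EGR1, the 3 largest called changes of each list and the 3 nearest profiles per tested member were to be named, and some of these are not reported here. Same-numbered shEGR1#8 and shEGR1#9 libraries deviated together (r from 0.13 to 0.26 over 3 pairs, against 5 of 6 other pairs below 0), so the numbers were taken to pair these labels, from the data alone, and not to pair either with control (r from −0.19 to 0.06). The alternatives tried were a pseudocount of 0.1, no filter, other scalings, array weights, a replicate block, fits of fewer groups, left-out libraries and a 2-fold limit.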

Additional observations from a re-analysis of the deposited data

Results flagged for a closer look

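The log2 difference of MX2 from control had opposite signs in OCI-LY10 and SUDHL2 under the shEGR1 labels. In OCI-LY10 its log2 difference from control was −0.16, with all 6 libraries below the 3 controls, and in SUDHL2 it was 0.43 under shEGR1#8 and 0.46 under shEGR1#9, with 1 library each. Neither passed: the limma adjusted p in OCI-LY10 was 0.104, and the SUDHL2 values are 1.35-fold and 1.37-fold, under the 1.5-fold limit. In TMD8 the differences were −0.08 and 0.02, turning to 0.38 and 0.41 when rescaled without short RNA genes. MX2 was picked out because every library of one line moved one way and every library of the other the opposite way. The difference between the lines was not tested.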

How the results depend on the processing

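Calls in OCI-LY10 that held in all 16 settings run for both labels were those of MX1 and SAMD9L, and no member changed direction in any OCI-LY10 setting. Leaving out 1 library at a time, or replicate 3 of every group, gave 2 to 6 calls for both labels (6 with all libraries), 2 to 4 for shEGR1#8 (3), 2 to 6 for shEGR1#9 (4) and 0 throughout for shEGR1#9 against shEGR1#8. A left-out library lowers the number of libraries in the fit. Over all genes these fits gave 206 to 876 upward calls for both labels (620 with all libraries). They gave 98 to 427 for shEGR1#8 (394) and 103 to 757 for shEGR1#9 (377). With array weights shEGR1#8 gave 5 calls and shEGR1#9 gave 8, of which 7 rose and 1, MX2, fell. Over all genes array weights gave 515 up and 234 down for shEGR1#8 and 1267 up and 683 down for shEGR1#9. A fit of only shEGR1#8 and control gave 1 call, beside 94 up and 34 down over all genes. The cause was not tested. The members counted past 1.5-fold in TMD8 went to 7 after rescaling without short RNA genes (4 as deposited). That rescaling raised the upward count over all genes in TMD8 as well. In SUDHL2 a 2-fold limit, which is stricter by construction, left 3 (6 at 1.5-fold). The shares of all genes given for SUDHL2 are at 1.5-fold and do not apply to the 2-fold limit. Replicate numbers paired shEGR1#8 with shEGR1#9 but neither with control, and 5 of 9 libraries correlated best with their own number. With a replicate block shEGR1#9 against shEGR1#8 still gave 0 calls, both labels gave 5, shEGR1#8 gave 2 and shEGR1#9 gave 3. Over all genes the block gave 537, 251 and 242 upward calls for both labels, shEGR1#8 and shEGR1#9. The limma adjusted p with the block was 0.0573 for IFITM3 with both labels, 0.0538 and 0.0595 for SAMHD1 under shEGR1#8 and shEGR1#9, and 0.0555 for SAMD9 under shEGR1#9, while IFITM2 under shEGR1#9 passed at 0.0351. Without read totals, what depth limits at the level of RSAD2 and IFITM1 could not be computed.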
